A study of Mus musculus with 44 samples.

Results

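Irf4, Irf8, Spi1, Spib and Spic are 5 of the 23234 genes in a table of FPKM values (fragment counts divided by transcript length and sequencing depth) from a B-lineage time course. They were chosen by name, as the lymphoid interferon regulatory factors and the members of the PU.1 subfamily of Ets factors, and the level of Spi1 was read from the row that carries its older symbol Sfpi1. All 44 libraries came from induced leukocyte stem (iLS) cells, multipotent progenitors of C57BL/6J mouse fetal liver that carry Id3-ERT2, an inhibitor of E proteins made dependent on 4-hydroxytamoxifen (4-OHT). Before the change of medium (0 h) the cells were kept with 4-OHT at 40 nM, IL-7 at 20 ng/mL and the cytokines SCF and Flt-3L at 10 ng/mL each. Differentiation toward B cells began when 4-OHT was left out and IL-7 was given at 5 ng/mL, and both phases took place on TSt-4 stromal feeder cells. Of the 16 time points, counted in hours from that change, 14 from 0 to 144 h had 3 libraries, and those of 120 and 168 h had 1. Each library was a bulk sample of poly(A) RNA from the culture, and separate cultures for the replicates are not stated, so p-values reflect only how far these libraries spread.

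PU.1, the product of Spi1, is an Ets-domain factor that binds purine-rich DNA and is needed for both myeloid and B-lymphoid development. Spib encodes its close relative Spi-B, which acts with PU.1 in B cells and in plasmacytoid dendritic cells, and Spic encodes Spi-C, best known from red pulp macrophages. Irf4 and Irf8 bind DNA weakly alone and are drawn by PU.1 or Spi-B to composite Ets-Irf elements. In pre-B cells Irf4 and Irf8 are known for limiting the pre-B receptor response and for opening light chain loci, and Irf4 later drives plasma cell formation.

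The promoters of the Irf pair are shown because both genes returned late in the course while their balance differed from that at 0 h. RefSeq's promoter table for GRCm38.p6 held 4 of the 5 genes, and the 250 bases before each annotated start were searched on both strands for the core of the PU box (GAGGAA), the Ets-Irf composite element (GGAANNGAAA), a paired Irf element (GAAANNGAAA) and the TATA box (TATAAA). Capitals below mark the TATA box and, on the minus strand of Irf4, the PU box core, which reads TTCCTC. The Irf4 window is chr13:30748983-30749232 and the window of the first annotated Irf8 start is chr8:120736108-120736357, both on the plus strand.
Irf4: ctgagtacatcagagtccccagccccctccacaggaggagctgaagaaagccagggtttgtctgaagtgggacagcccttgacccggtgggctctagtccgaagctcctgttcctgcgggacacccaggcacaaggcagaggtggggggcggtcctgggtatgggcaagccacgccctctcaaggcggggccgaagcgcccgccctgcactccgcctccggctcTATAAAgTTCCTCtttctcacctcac
Irf8: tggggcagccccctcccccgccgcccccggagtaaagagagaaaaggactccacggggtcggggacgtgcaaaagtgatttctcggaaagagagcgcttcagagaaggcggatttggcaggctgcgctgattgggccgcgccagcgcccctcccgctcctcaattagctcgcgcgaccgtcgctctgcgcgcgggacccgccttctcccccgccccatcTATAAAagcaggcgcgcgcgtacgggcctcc
The TATA letters began 26 bases before the start of Irf4 and 31 bases before that of Irf8, and 12.4% of all 32851 promoter windows held them. The PU box core of Irf4 began 19 bases before its start, next to the TATA letters, and 23.3% of all windows held it. The composite letters, present in 2.3% of all windows, and the paired Irf letters, present in 2.98%, were in no window of Irf4, Irf8, Spib or Spic. A match of letters is a description and not evidence of binding.

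The mix of blood and feeder RNA moved with time and touches each result below. The summed level of 18 genes common to blood cells (Ptprc, Coro1a and others) was 2533 ± 330 FPKM (SD, n = 3) at 0 h, 611 ± 241 after 24 h and 2036 ± 161 after 144 h. The summed level of 23 stromal genes was 1407 ± 989, 8896 ± 898 and 2632 ± 703 FPKM at the same times. None of the 23 was at 0 in every library, but Dcn was at 0 in 43 of 44. In such bulk samples fewer cells of a type and less RNA per cell cannot be told apart. Each gene is therefore given both as deposited and relative to the blood-cell genes, either per 1000 FPKM of their sum or in a fit that scaled every library to them. In that fit the median log2 change of all genes was 0.79 after 1 h, 1.21 after 6 h, 1.76 after 24 h and 0.28 at 144 h against 0 h, compared with -0.08, -0.06, -0.06 and 0.03 as deposited. At 144 h against 24 h it was -1.47, compared with 0.08. A fit with the stromal level as a covariate called none of the 5 genes at 1, 6, 24 or 72 h against 0 h, where it called 0.151%, 0.0719%, 0.0431% and 0.0216% of all genes. The B-lineage marker sum (Pax5, Vpreb2 and 6 others) was 169 ± 41.5 FPKM at 0 h, 21.4 ± 2.82 after 24 h and 633 ± 154 after 144 h, and all 8 markers were detected. The table holds no counts, so the depth is unknown, and relative depth estimated from the smallest values spanned 4.09-fold.

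Spi1 was the most abundant of the 5 genes, ranking first in 41 of 44 libraries, and Irf8 ranked first in the other 3. Median levels over all libraries were 39.4 FPKM for Spi1, 14.8 for Irf8, 1.52 for Spib and 1.50 for Irf4. Spib and Irf4 therefore lay near the middle of the table, above 50.6% and 50.5% of all rows, against 91.2% for Spi1 and 77.7% for Irf8. Spic was listed at 0 in 41 libraries. Spi1, Irf8, Irf4 and Spib passed the filter of 1 FPKM in at least 3 of 42 libraries and were tested with Benjamini-Hochberg adjustment in limma on log2(FPKM + 1), a scale that understates changes of low genes. All 4 differed from 0 h at some later time point by the F test, as did 56.0% of the 13907 genes tested, so this count is a poor guide to these genes. The adjusted p of that limma test was 3.54e-10 for Irf4, 1.72e-09 for Irf8, 2.55e-07 for Spib and 8.56e-05 for Spi1.

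**Figure D1:**
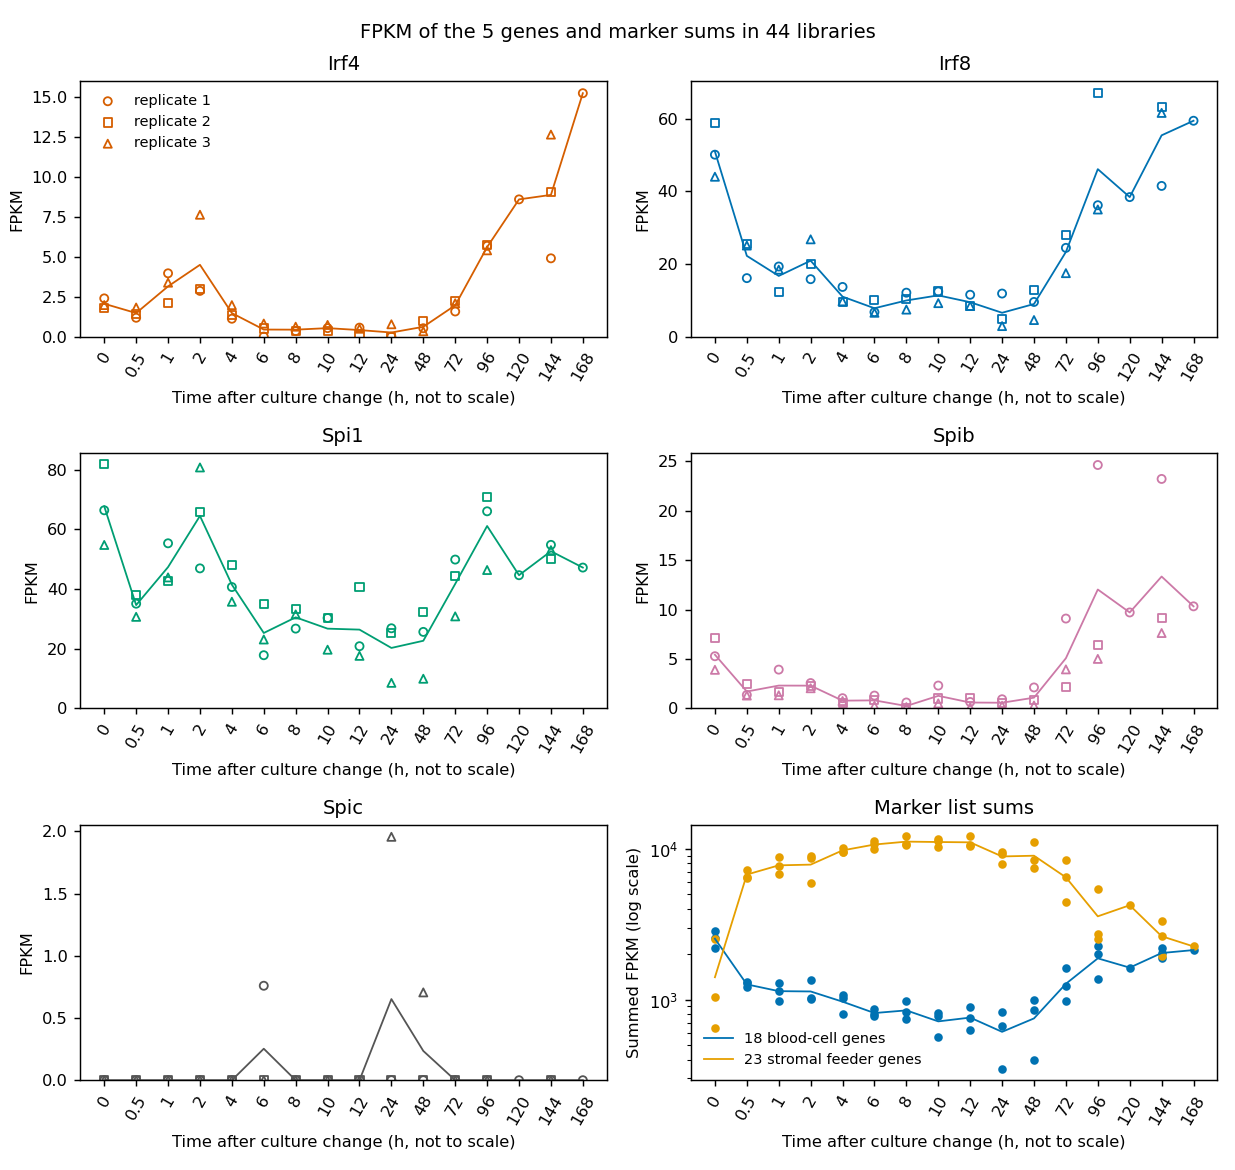
FPKM of Irf4, Irf8, Spi1, Spib and Spic in each library (open symbols by replicate number) with lines through the time-point means, and in the last panel the summed FPKM of the blood-cell and stromal lists on a log axis; time points are evenly spaced and not to scale. Irf8, Spi1 and Spib drop within 0.5 h, as does the blood-cell sum, and Irf8 and Spib return from 72 h. Irf4 and Spi1 have a second high point at 2 h, and Spic is above 0 in 3 libraries.

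Irf8 lost most of its level within the first hours and regained it by 96 to 144 h. Its libraries read 50.1, 58.8 and 44.1 FPKM at 0 h, 16.1, 25.6 and 25.1 after 0.5 h, 19.3, 12.4 and 18.4 after 1 h, and 6.76, 10.1 and 6.58 after 6 h. At 24 h they read 11.9, 4.94 and 2.90 FPKM, and over the 21 libraries from 4 to 48 h none exceeded 13.7. No library between 0.5 and 72 h reached the lowest 0 h value. At 24 h, 24.6% of all genes lay below their 0 h libraries in this way. The libraries then read 24.5, 28.1 and 17.5 FPKM after 72 h, 36.2, 67.2 and 35.0 after 96 h, 38.5 after 120 h, 41.5, 63.2 and 61.6 after 144 h, and 59.5 after 168 h. From 96 h on 4 libraries lay above all those at 0 h and the other 4 below, and none fell within their range.

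In limma, Irf8 changed by -1.18 ± 0.33 (log2, SE) at 0.5 h (adjusted p = 0.0097), the earliest time sampled after the change, among 7.29% of all genes called lower. The 18 blood-cell genes had a median log2 change of -0.95 at 0.5 h, and 14 of them were called lower. The log2 change was -1.57 ± 0.33 after 1 h (adjusted p = 0.000473), -2.57 ± 0.33 after 6 h (2.53e-07) and -2.95 ± 0.33 after 24 h (3.19e-08). At 72 h the limma estimate was still -1.11 ± 0.33 (adjusted p = 0.0121), and at 144 h it was 0.10 ± 0.33 (adjusted p = 0.92). The 72 h call held in 12 of 19 alternatives and was lost, among others, without 0 h replicate 2, without 72 h replicate 3 and with blood-cell scaling (-0.09, adjusted p = 0.769), and without replicate 2 throughout the 1 h estimate was -1.27 with an adjusted p of 0.0685. Irf8 was the only one of the 4 tested genes called after 1 h, where 15.3% of all genes were called lower, and the only one called after 72 h, where 8.23% were. Libraries can also be grouped by runs of consecutive codes, which the labels do not explain. Within the 2 runs that hold both 0 and 24 h, Irf8 differed by -1.99 and -3.33 on the log2 scale, and no run holds 0 h and a time after 24 h.

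Irf8 was also lower relative to the blood-cell genes. Per 1000 FPKM of their sum it stood at 20.1 ± 0.65 (SD, n = 3) at 0 h, 18.3 ± 2.33 after 2 h, 9.63 ± 2.60 after 6 h, 10.1 ± 3.81 after 24 h and 27.6 ± 7.59 after 144 h. After 0.5 h it stood at 17.55 ± 3.59. In the blood-scaled limma fit the change after 1 h was -0.45 ± 0.25 (adjusted p = 0.137), and it was called after 6 h (-1.02 ± 0.25, adjusted p = 0.000717) and after 24 h (-0.89 ± 0.25, adjusted p = 0.00187). It was also called lower after 4, 8, 12 and 48 h (-0.64 to -0.77, limma adjusted p from 0.00802 to 0.0244), where 0.690%, 0.956%, 0.892% and 0.525% of all genes were, but not at 10 h (-0.32 ± 0.25, adjusted p = 0.259). In that fit 0.784% of all genes were called lower after 6 h and 0.856% after 24 h, while over 70% were called higher at both times (70.8% and 80.2%). Irf8 was the only tested gene of the set called at either time on this scale.

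Irf4 was low at the start, had a brief high point at 1 to 2 h, became almost undetected, and ended as the only gene of the set called above its 0 h level. Its libraries read 2.39, 1.80 and 1.97 FPKM at 0 h, 3.96, 2.1 and 3.38 after 1 h, and 2.86, 2.99 and 7.63 after 2 h. At 6 h they read 0, 0.508 and 0.818 FPKM, and at 24 h 2 were listed at 0 and the third read 0.772. All 3 libraries of 2 h lay above those of 0 h, as in 20.9% of all genes. All from 6 to 48 h lay below them, as in 22.9% (48 h) to 26.7% (10 h) of all genes. At 72 h the values were back in the 0 h range, at 1.57, 2.21 and 2.09 FPKM. They then read 5.68, 5.73 and 5.40 FPKM after 96 h, 8.59 after 120 h, 4.90, 9.06 and 12.6 after 144 h, and 15.2 after 168 h. All of these lay above every 0 h library, as in 14.7% of all genes at 96 h and 12.3% at 144 h.

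The rise of Irf4 at 2 h was 0.74 ± 0.29 (log2, SE; limma adjusted p = 0.0439), a comparison chosen after the values were seen, and 16.5% of all genes were called higher there. It rested on 2 h replicate 3, without which it was 0.37 with a limma adjusted p of 0.356. The call was also lost without any 1 of the 0 h libraries (adjusted p 0.0608 to 0.121), and it held in 7 of 18 alternatives in all. Relative to the blood-cell genes it was larger, at 1.05 ± 0.37 after 1 h (adjusted p = 0.0197) and 1.41 ± 0.37 after 2 h (adjusted p = 0.00244), but over 51% of all genes were called higher in that fit at these times (51.3% and 51.8%). Within the 3 code runs that hold 0 and 2 h, the log2 differences of Irf4 were 1.54, 0.19 and 0.51.

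The later fall of Irf4 was -1.12 ± 0.29 after 6 h (limma adjusted p = 0.00239) and -1.33 ± 0.29 after 24 h (0.000356). Scaled to the blood-cell genes it was -0.28 ± 0.37 at 24 h (limma adjusted p = 0.504). The late rise was 1.12 ± 0.29 at 96 h against 0 h (limma adjusted p = 0.011, among 7.79% of genes called higher) and 1.61 ± 0.29 after 144 h (0.00035), and the mean after 144 h was 4.31-fold that at 0 h. Irf4 was the only tested gene of the set called at 144 h against 0 h, where 5.64% of all genes were called higher. On the blood-scaled values the 144 h change was 1.57 ± 0.37 (limma adjusted p = 0.0134), with 2.39% of all genes called higher, and the level per 1000 FPKM of blood-cell genes went from 0.82 ± 0.16 at 0 h to 4.47 ± 2.26 after 144 h and 7.15 in the single library after 168 h. The call at 96 h was lost in 8 of 18 alternatives (limma adjusted p from 0.0511 to 0.21): blood-cell scaling (1.19, adjusted p = 0.0574), the stromal covariate, a pseudocount of 0.1, quantile normalization, code runs as a term, and without replicate 1, replicate 2 or 0 h replicate 2. The call at 144 h was lost with a pseudocount of 0.1 (adjusted p = 0.0523), without replicate 2 throughout (0.0853) and when only the 6 libraries of both times were fitted (0.0964).

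**Figure D2:**
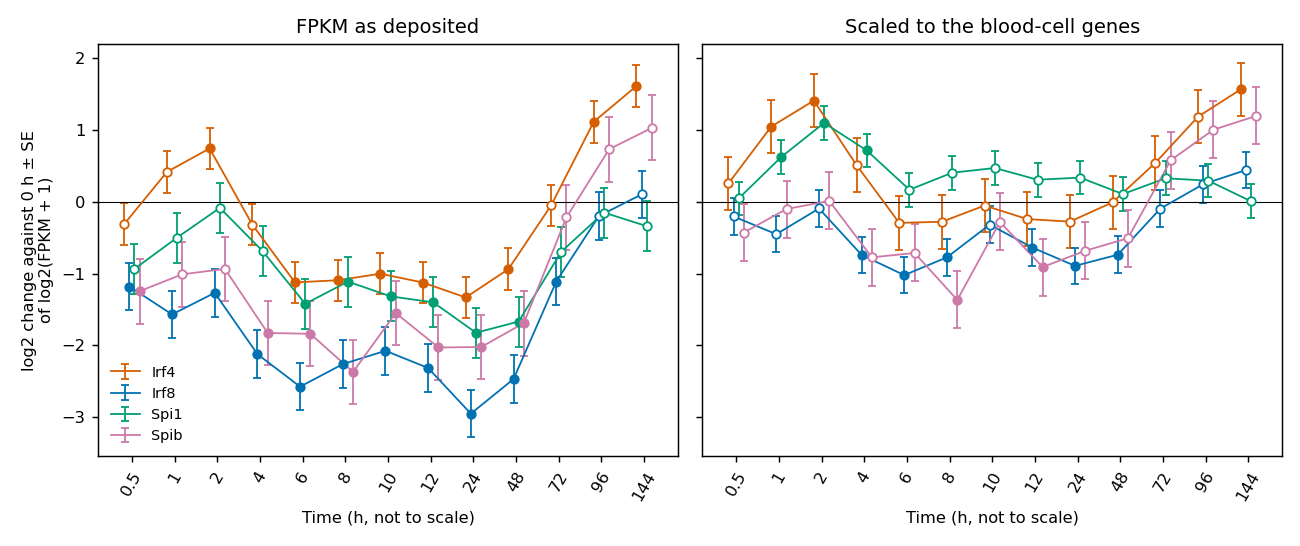
log2 change of Irf4, Irf8, Spi1 and Spib against 0 h at each replicated time point, as deposited (left) and scaled to the 18 blood-cell genes (right), with bars for the SE of the limma fit; filled points have an adjusted p under 0.05. All 4 genes are lower from 6 to 48 h on the left, whereas on the right Spi1 lies above 0 from 6 to 48 h and Irf8 remains below, at -0.89 at 24 h.

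As deposited, Spi1 lay below its 0 h libraries from 4 to 72 h, whereas relative to the blood-cell genes it was higher at 1 to 4 h. Its libraries read 66.4, 82.0 and 54.8 FPKM at 0 h, 35.1, 38.1 and 30.7 after 0.5 h, and 47.0, 65.9 and 80.8 after 2 h. They read 17.8, 34.9 and 23.1 FPKM after 6 h and 26.9, 25.4 and 8.58 after 24 h, the lowest being the library with the lowest blood-cell sum of all (349 FPKM). At 72 h they read 49.9, 44.5 and 30.9 FPKM, after 144 h 54.8, 50.2 and 53.1, and after 168 h 47.2. The 0.5 h libraries lay below all 0 h libraries, as did 19.7% of all genes, and so did those from 4 to 72 h, where the share of all genes went from 14.5% (72 h) to 26.7% (10 h). Those of 2 h overlapped the 0 h libraries.

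The log2 change of Spi1 was -0.93 ± 0.35 after 0.5 h (limma adjusted p = 0.052), -0.08 ± 0.35 after 2 h (0.882), -1.42 ± 0.35 after 6 h (0.00151) and -1.82 ± 0.35 after 24 h (7.42e-05). At 144 h it was -0.34 ± 0.35 (limma adjusted p = 0.653). Relative to the blood-cell genes the fall was not present, at 0.17 ± 0.23 after 6 h and 0.34 ± 0.23 after 24 h (limma adjusted p = 0.527 and 0.184). On that scale Spi1 rose after 1 h (0.63 ± 0.23, limma adjusted p = 0.0256), 2 h (1.10 ± 0.23, 0.000312) and 4 h (0.72 ± 0.23, 0.00832), among the 51.3%, 51.8% and 65.6% of genes called higher there, and it was called at no other replicated time against 0 h. Per 1000 FPKM of the blood-cell sum, Spi1 went from 26.6 ± 2.03 (SD, n = 3) at 0 h to 42.1 ± 7.56 after 1 h and 56.7 ± 9.19 after 2 h, then to 42.9 ± 2.92 after 4 h, 31.3 ± 11.6 after 6 h, 37.1 ± 2.11 after 10 h, 31.9 ± 6.87 after 24 h and 26.0 ± 2.04 after 144 h. Of the 41 later libraries, 28 lay above the highest at 0 h (28.9), among them all 3 of 1, 2, 4, 10, 72 and 96 h, and 7 lay below all those at 0 h. In the blood-scaled fit 75.6%, 55.8% and 4.66% of all genes were called higher at 10, 72 and 96 h, so most of this count is no trait of Spi1 alone.

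Spib fell with Irf8 and returned beyond its 0 h mean, with a wide spread. Its libraries read 5.28, 7.12 and 3.91 FPKM at 0 h, 1.36, 2.46 and 1.30 after 0.5 h, 0.600, 0 and 0.135 after 8 h, and 0.928, 0.529 and 0.268 after 24 h. No library from 4 to 48 h exceeded 2.31 FPKM, below the lowest at 0 h. At these times 22.9% (48 h) to 26.7% (10 h) of all genes lay below their 0 h libraries in this way. Later they read 9.09, 2.19 and 3.95 FPKM after 72 h, 24.6, 6.46 and 5.01 after 96 h, 9.71 after 120 h, 23.2, 9.19 and 7.63 after 144 h, and 10.3 after 168 h. Replicate 1 was the highest by far at 72, 96 and 144 h, and all 3 libraries after 144 h lay above those at 0 h, as did those of 12.3% of all genes.

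The log2 change of Spib was -1.24 ± 0.45 after 0.5 h (limma adjusted p = 0.0456), -1.84 ± 0.45 after 6 h (0.00153), -2.37 ± 0.45 after 8 h (8.89e-05, with 19.2% of all genes called lower) and -2.02 ± 0.45 after 24 h (0.000491). The later estimates, 0.73 ± 0.45 for 96 h and 1.03 ± 0.45 for 144 h, were not called against 0 h (limma adjusted p = 0.356 and 0.164). Per 1000 FPKM of blood-cell genes Spib stood at 2.12 ± 0.36 (SD, n = 3) at 0 h, 2.09 ± 0.53 after 2 h, 0.90 ± 0.20 after 24 h and 6.38 ± 3.64 after 144 h. In the blood-scaled fit Spib was called lower after 8 h (-1.37 ± 0.40, limma adjusted p = 0.00305) and 12 h (-0.91 ± 0.40, 0.039), among 0.956% and 0.892% of all genes. It was not called on that scale at other replicated times against 0 h, with -0.68 ± 0.40 at 24 h (limma adjusted p = 0.113).

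Counted together, the 4 tested genes were all called lower after 6 h and after 24 h, where 19.2% and 22.5% of all genes were called lower. The count at 6 h was 2 without replicate 1, and scaled to the blood-cell genes it was 1 at both times. From 24 to 144 h all 4 rose, by 3.05 ± 0.33 (log2, SE) for Irf8, 3.05 ± 0.45 for Spib, 2.95 ± 0.29 for Irf4 and 1.49 ± 0.35 for Spi1 (limma adjusted p from 5.29e-09 to 0.00134), where 17.4% of all genes were called higher. The rise of Spi1 was not called when only the 6 libraries of both times were fitted (adjusted p = 0.0832). Scaled to the blood-cell genes, 3 of the 4 still rose, by 1.88 for Spib, 1.84 for Irf4 and 1.33 for Irf8, among 1.35% of all genes called higher, while Spi1 stood at -0.33 ± 0.23 (limma adjusted p = 0.197). With the stromal covariate, Irf4 and Irf8 were called higher, among 1.59% of all genes.

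**Figure D3:**
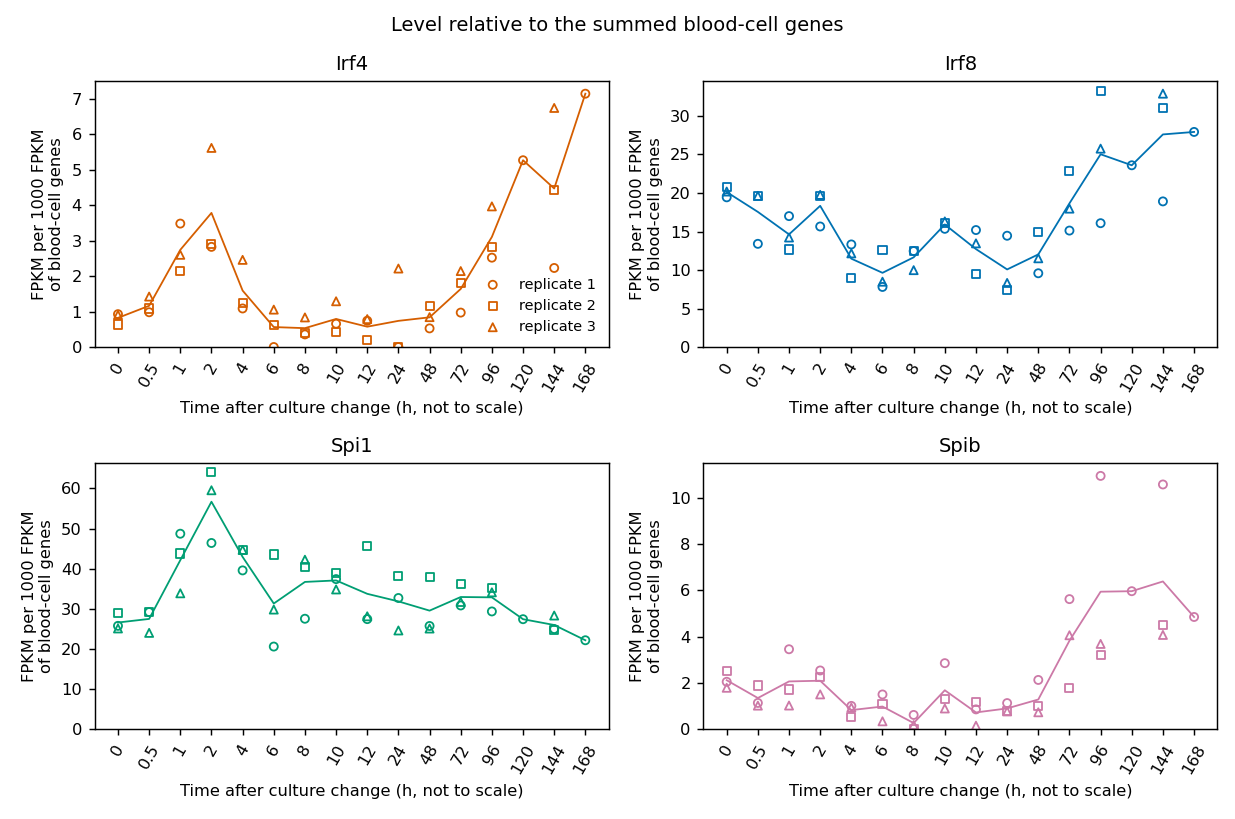
FPKM of Irf4, Irf8, Spi1 and Spib per 1000 FPKM of the summed 18 blood-cell genes in each library (open symbols by replicate number) with lines through the means; time points are not to scale. Spi1 peaks at 2 h with a mean of 56.7, Irf8 is lowest at 6 h with a mean of 9.63, Irf4 has high points at 2 h and from 96 h on, and Spib is highest from 96 h on.

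Spic, the third PU.1 relative, gave almost no signal. It read 0.76 FPKM in 6 h replicate 1, 1.96 in 24 h replicate 3 and 0.71 in 48 h replicate 3, and was listed at 0 in the other 41 libraries. The group with the highest single value thus held 2 libraries at 0, and with no filter on low values its 24 h difference was 0.52 ± 0.23 (log2, SE; limma adjusted p = 0.0905). The libraries of 24 h and 48 h in question also had the lowest blood-cell sums of their time points. Without counts, absence and a level too low to sample cannot be told apart. Of 5 iron-handling genes of red pulp macrophages, where Spi-C is known to act, 4 nevertheless reached 1 FPKM. The other, Slc40a1, never exceeded 0.91 FPKM and was at 0 in 16 libraries. The sum of all 5 was 2629 ± 139 FPKM at 0 h and 4443 ± 525 after 24 h. Nearly all of it came from the ferritin chains Fth1 (mean 2216 FPKM after 24 h) and Ftl1 (2128 FPKM). Of 4 tested, 3 were called higher at 24 h, including Blvrb (2.55, limma adjusted p = 8.75e-07) and heme oxygenase Hmox1 (2.02, 2.63e-07). Among 19 alternatives the 24 h estimates ranged from 0.56 to 4.50 for Blvrb and from 0.23 to 4.10 for Hmox1, and each call held in 18. These are genes that many cell types express, and they moved with the stromal sum. The cause of their rise was not tested.

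The balance within each pair was measured in the same library, where a quotient of FPKM does not depend on the blood share if only blood cells express both genes. The tested log2 ratio of FPKM + 1 does depend on it, since the added 1 weighs more when levels are low. Its test therefore cannot separate the balance from the blood share. Irf4 amounted to 4.77, 3.07 and 4.48% of Irf8 FPKM at 0 h, to 20.5, 16.9 and 18.3% after 1 h, and to 18.1, 14.8 and 28.4% after 2 h. It then spread widely, at 0, 5.02 and 12.4% after 6 h, 2.86, 3.25 and 8.37% after 8 h, and 0, 0 and 26.6% after 24 h. Irf4 never exceeded 0.818 FPKM from 6 to 24 h. After 144 h the quotient was 11.8, 14.3 and 20.5%, with 22.3% after 120 h and 25.6% after 168 h. Of the 41 later libraries, 33 lay above all those at 0 h and 6 below, whereas on the log2 ratio of FPKM + 1 all 41 lay above. The log2 ratio of FPKM + 1 differed over the 14 replicated time points (two-sided permutation test of the one-way F, 42 libraries, p = 0.00429, adjusted over 3 ratios 0.00582), with a mean of -4.08 ± 0.29 (SD, n = 3) at 0 h and -2.57 ± 0.34 after 144 h. Without replicate 2 the permutation p was 0.366, and the added 1 FPKM draws low values together, so the ratio between 6 and 48 h is best read from the FPKM themselves.

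Spib amounted to 7.95, 8.68 and 7.13% of Spi1 FPKM at 0 h, to 2.24, 0 and 0.429% after 8 h, and to 42.3, 18.3 and 14.4% after 144 h. All libraries from 96 h on lay above those at 0 h, the lowest at 9.09%. The log2 ratio differed over time (permutation p = 0.00038, adjusted 0.00114) and kept a permutation p of at most 0.0461 with any replicate number left out. The ratio of Spic to Spi1 gave an adjusted permutation p of 0.00582, but with Spic at 0 in nearly all libraries it reflects the level of Spi1, and it was lost with a pseudocount of 0.1 (p = 0.092). Across the families, Irf8 stood at 75.9 ± 4.34% of Spi1 (SD, n = 3) at 0 h, 32.5 ± 1.69% after 2 h, 32.5 ± 12.4% after 24 h and 106 ± 26.6% after 144 h. The quotient of Irf8 to Spi1 was not among the ratios tested.

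**Figure D4:**
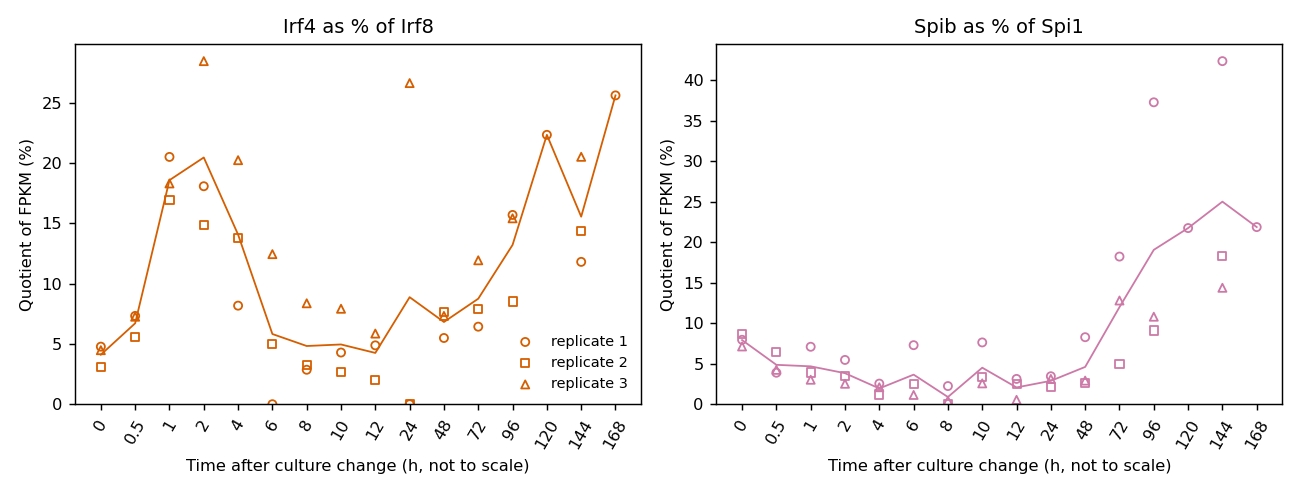
Irf4 as a percent of Irf8 FPKM (left) and Spib as a percent of Spi1 FPKM (right) in each library, by replicate number, with lines through the means; time points are not to scale. Irf4 reaches 14.8 to 28.4% of Irf8 after 2 h and 11.8 to 20.5% after 144 h, against 3.07 to 4.77% at 0 h, and Spib reaches 14.4 to 42.3% of Spi1 after 144 h.

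In the order of time-point means, neighbours rarely separated. Irf4 ran from 24 h (lowest) through 12, 8, 6, 10, 48, 4, 0.5, 72, 0, 1, 2, 96, 120 and 144 to 168 h, and libraries overlapped in 12 of 15 neighbouring pairs. The pairs that did not overlap were 48 and 4 h, 96 and 120 h, and 144 and 168 h. Irf8 was lowest after 24 h and highest after 168 h with 14 of 15 neighbouring pairs overlapping, Spi1 was lowest after 24 h and highest at 0 h with 14 of 15, and Spib was lowest after 8 h and highest after 144 h with 13 of 15.

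Other members of both families did not share 1 course. Of 7 other Irf genes, 6 were tested, and 3 were called lower at 24 h and 3 higher from 24 to 144 h: Irf5 (25.9 FPKM at 0 h, 8.69 after 24 h and 21.0 after 144 h), Irf3 (34.7, 13.9 and 25.3) and Irf2 (35.6, 17.2 and 34.2). Their log2 changes at 24 h were -1.57, -1.35 and -1.03, and scaled to the blood-cell genes they stood at 0.50, 0.77 and 1.12, opposite in sign to Irf8. Of 23 other Ets genes, 17 were tested, with 7 called higher and 7 lower at 24 h and a median change of 0.03, against -0.06 over all genes. Elf1 and Fli1, Ets factors of blood cells, changed by -1.65 and -1.52 (limma adjusted p = 7.71e-08 and 2.1e-05), while Etv4 changed by 1.99 (0.000121). From 24 to 144 h, 9 of the 17 were called higher, among them Erg (0.456 to 30.1 FPKM, log2 change 4.27, limma adjusted p = 3.72e-05) and Ets1 (18.8 to 51.9 FPKM, 1.41, 2.36e-08), and Etv4 was called lower. With blood-cell scaling Elf1 and Fli1 stood at 0.52 and 0.63 at 24 h, and Ets1 at -0.42 from 24 to 144 h.

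**Figure D5:**
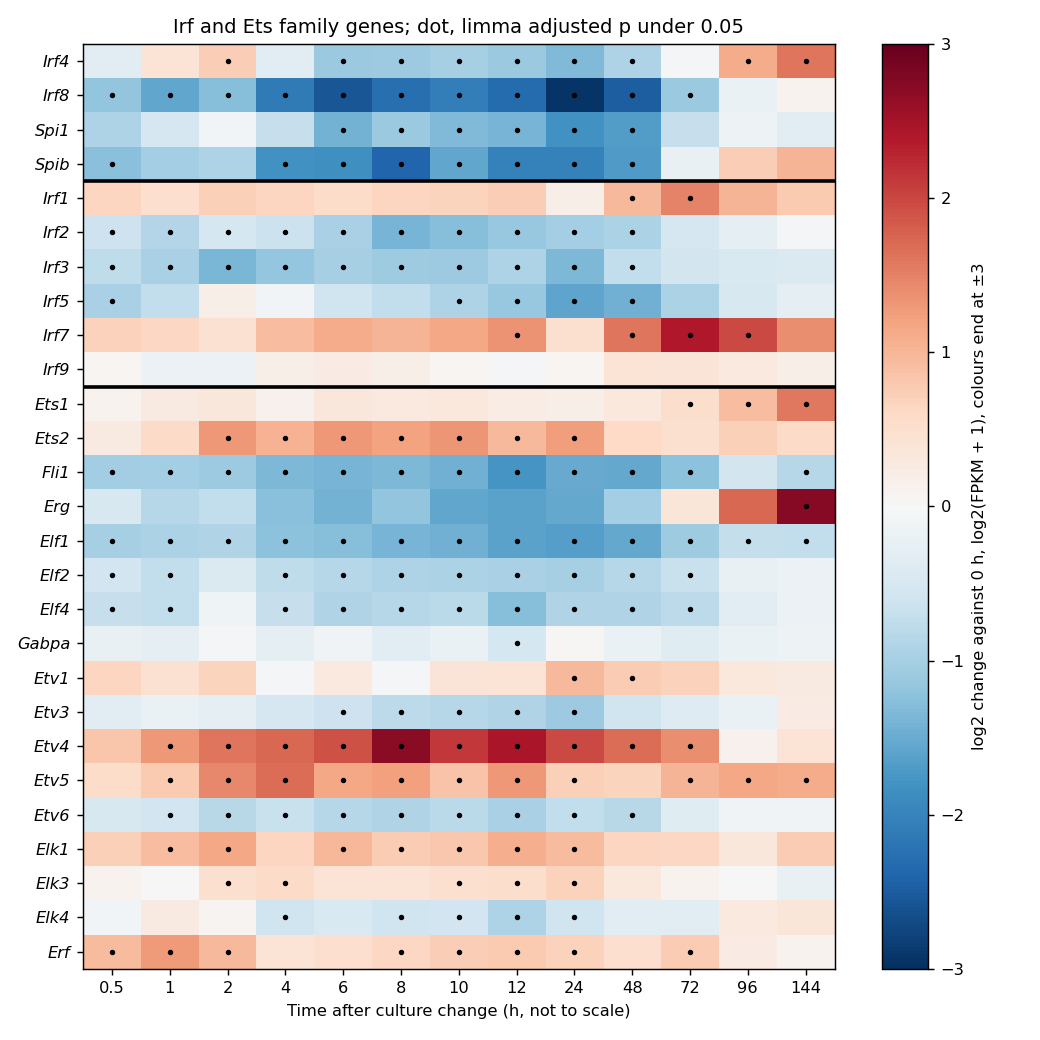
log2 change against 0 h of the 4 tested genes (top), the other tested Irf genes (middle) and the other tested Ets genes (bottom) at each replicated time point; red is higher, blue is lower, and a dot marks a limma adjusted p under 0.05. Irf8 has the deepest blue of the heat map at 24 h (-2.95), and Irf3, Irf2, Elf1 and Fli1 are also lower there.

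Most known lymphoid targets of the PU.1 subfamily fell by 24 h and rose again by 144 h. Of 11 lymphoid target genes 9 were called lower at 24 h (median -1.84) and 10 called higher from 24 to 144 h (median 2.34, against 0.08 over all genes), where 22.5% and 17.4% of all genes were called. The 18 general blood-cell genes were also all called lower and then all higher (medians -2.22 and 1.88). Cd79a and Cd79b, the signalling chains of the B cell receptor, went from 5.09 to 198 and from 2.83 to 103 FPKM, with log2 changes of 5.12 and 5.02 (limma adjusted p = 6.12e-10 and 1.1e-09). Blnk, the adaptor of that receptor, changed by 4.31. At 24 h the largest falls were those of Cd72 (-3.02), the cytokine receptor Flt3 (-2.90) and the kinase Btk (-2.78). Of 14 myeloid target genes 7 were called lower after 24 h (median -0.82) and 4 higher from 24 to 144 h (median 0.81), and 3 were lower after 144 h than at 0 h. Tyrobp, which encodes an adaptor of myeloid receptors, changed by -2.44 after 24 h, and the integrin gene Itgam by 1.55 from 24 to 144 h. The difference between the lymphoid and the myeloid list was not tested.

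Of 13 genes listed as targets of Irf4 and Irf8, 9 were tested, and the list does not state whether a target is activated or repressed. At 24 h 7 were called lower and 1 higher (median -1.82), where 22.5% and 20.8% of all genes were. The 18 general blood-cell genes were all called lower then and all higher from 24 to 144 h (medians -2.22 and 1.88). From 24 to 144 h, 7 targets were called higher and none lower (median 2.33), where 17.4% and 15.6% of all genes were. The surrogate light chain genes Vpreb1 and Igll1 changed most, from 4.42 to 398 FPKM (log2 change 6.32) and from 7.71 to 390 FPKM (6.06), followed by the recombinase gene Rag1 (4.37). Ikzf1, which encodes Ikaros, changed by -2.29 at 24 h. Of 15 tested partner and upstream factors, 7 were called lower and 2 higher at 24 h, and 8 higher and 3 lower from 24 to 144 h. The AP-1 member Jund changed by -2.29 and Myb by -2.02 after 24 h, and Bcl11a, a B-lineage zinc finger factor, by -1.97 after 24 h and 2.93 from 24 to 144 h. Batf and Bach2, an AP-1 partner of Irf4 and a repressor known from B cells, changed by 1.91 and 1.51 from 24 to 144 h. Scaled to the blood-cell genes, Myb and Bcl11a stood at 0.16 and 0.10 at 24 h. The 24 h changes of Jund and Ikzf1 shrank to as little as -0.10 among 19 alternatives, and each call held in 17. From 24 to 144 h the calls of Vpreb1, Igll1, Rag1 and Bcl11a held in all 19, that of Bach2 in 18 and that of Batf in 12.

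Markers of other cell types that express these factors differed in level. The 12 macrophage and dendritic markers summed to 45.3 to 70.3 FPKM at 0 h, 20.5 to 28.9 after 24 h and 28.0 to 45.7 after 144 h, and 9 of 12 ever reached 1 FPKM. Of 9 tested, 3 were called lower and 1 higher after 24 h (median -0.28), where 22.5% and 20.8% of all genes were. Among those called lower, Adgre1 (-2.22) and Marco (-2.08) changed most. The 8 granulocyte markers summed to 7.92 to 28.5, 3.06 to 8.39 and 4.87 to 20.8 FPKM at these times, with 2 of 4 tested called lower at 24 h. The 5 plasma cell markers summed to 552 to 625, 67.0 to 196 and 190 to 334 FPKM, with 2 of 4 tested called lower at 24 h. The plasma sum was mostly Jchain, the joining chain of antibodies, with means of 466 FPKM at 0 h and 110 after 144 h. None of these markers was at 0 in every library, but Elane, Clec9a and Tnfrsf17 were at 0 in 42 of 44 libraries. S100a9 and Cd209a were at 0 in 43. At 144 h against 0 h, Jchain and Sdc1 were called lower (log2 change -2.20 and -1.02), while Mzb1 (23.1 to 61.5 FPKM) and Xbp1 (49.5 to 81.4 FPKM) stood at 1.37 and 0.68 and were not called (limma adjusted p = 0.118 and 0.0866). Of the 8 B-lineage markers 5 were called higher then and none lower. The part of other cell types in the levels of the 5 genes was not tested.

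The genes most like each factor were sought over the 16 time-point means of log2(FPKM + 1), among all tested genes, as a description. The time points share the shift in blood share, which by itself aligns blood-cell genes. Irf4 was most like Myc (Pearson r = 0.963), Arid3b (0.963) and Tnfrsf13c (0.957). Irf8 was most like Prkch (0.988), and Inpp5d (0.982) was also among its 3 closest, a gene of the blood-cell list itself. Spi1 was most like Akap13 (0.957), Pik3ap1 (0.940) and Mapkapk2 (0.937), and Spib most like Armcx4 (0.971), Lrmp (0.967) and Fabp5 (0.967). After the mean of the blood-cell genes was subtracted at each time point, Arid3b still led for Irf4 (0.920) and Prkch for Irf8 (0.918). Spib was then most like Cecr2 (0.924), Vpreb1 (0.918) and Vpreb2 (0.916), the latter both surrogate light chain genes, and Spi1 most like Rhof (0.909). On that scale Spib and Irf8 had r = 0.834 with each other, whereas Spi1 had r = -0.45 with Irf8, -0.41 with Spib and -0.08 with Irf4.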

How the data were processed

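Poly(A) RNA was sequenced by the authors and deposited as 1 table of FPKM values; tools listed in the submitters' processing notes are Cufflinks 2.1.1 and TopHat2 2.1.0, with build mm9. The deposited values are called corrected without saying how. FPKM give no counts, so count models were not used. Libraries were grouped by the labels' time points. For the 13907 genes that reached 1 FPKM in 3 or more of the 42 replicated libraries, log2(FPKM + 1) was modelled by time point with limma 3.58.1 in R 4.3.3 (eBayes with trend); adjusted p-values are Benjamini-Hochberg within a contrast, and a gene was called under 0.05. The libraries at 120 and 168 h were not fitted. Ratios were tested by permutation with 100000 resamples. Methods were tested on simulated data. The genes and lists were chosen with earlier results of these data known. Beyond the 5 genes, text names per list up to 3 called genes with the largest change at 24 h against 0 h and at 144 h against 24 h, and the 3 genes most like each factor. Some genes that this rule names are not reported here. All 168 list symbols were found, 4 through RefSeq synonyms. Alternatives covered pseudocount, filter, scaling, stromal covariate, replicate block, code run and left-out libraries.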

Additional observations from a re-analysis of the deposited data

How the results depend on the processing

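All 4 tested genes kept an adjusted p under 0.05 in the F test in all 54 alternatives. Counts of tested genes called moved as follows. Scaled to the blood-cell genes the count was 2 (1 h), 1 (6 h), 1 (24 h) and 0 (72 h). With the stromal covariate it was 0 at 1, 6, 24 and 72 h, and 2 at 144 h against 24 h. With code runs as a term it was 2 at 1 h and 0 at 72 h. At 144 h against 0 h it was 0 with a pseudocount of 0.1 and 0 with only the 6 libraries compared. Leaving out libraries gave 0 to 2 (1 h), 2 to 4 (6 h), 0 to 1 (72 h) and 0 to 1 (144 h against 0 h), and 4 throughout at 24 h and at 144 h against 24 h. The permutation F ranged from 1.21 to 4.66 for Irf4 to Irf8, from 2.69 to 5.17 for Spib to Spi1 and from 2.09 to 3.72 for Spic to Spi1 when 1 replicate number was left out, and the last was 1.85 with a pseudocount of 0.1.

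Same-numbered libraries correlated weakly over all tested genes, at -0.06 to 0.14 in their deviations, and the main fit did not pair them. These correlations do not show whether a single gene has a replicate effect. For Spib, replicate 1 was the highest at 72, 96 and 144 h. With a replicate block 2 genes were called at 1 h and 2 at 144 h against 0 h, the added gene being Spib (adjusted p = 0.0164 and 0.0362 in limma), and the block left the other counts at 4 (6, 24 h and 144 h against 24 h) and 1 (72 h).

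Signs that differed from the main estimates were these. Scaled to the blood-cell genes, Spi1 stood at 0.63, 1.10, 0.17, 0.34, 0.33 and 0.0086 at 1, 2, 6, 24, 72 and 144 h against 0 h and at -0.33 at 144 h against 24 h, Irf4 at 0.54 and Spib at 0.58 at 72 h, and Spib at 0.012 at 2 h. On that scale Irf5, Irf3, Irf2, Elf1, Fli1, Myb and Bcl11a stood at 0.50, 0.77, 1.12, 0.52, 0.63, 0.16 and 0.10 at 24 h, and Irf5, Irf2, Irf3, Ets1 and Itgam at -0.46, -0.84, -0.87, -0.42 and -0.061 at 144 h against 24 h. With the stromal covariate, Spi1 stood at 0.44, 0.87, 0.13 and 0.036 at 1, 2, 72 and 144 h, Spib at 0.29, 0.39 and 0.93 at 1, 2 and 72 h, Irf4 at 0.43 at 72 h, Fgr at -0.0064 at 144 h against 24 h and Adgre1 at 0.78 at 24 h. With median-ratio scaling Spi1 stood at 0.042 at 2 h. When a library or replicate number was left out, Irf4 ranged from -0.17 to 0.12 and Spib from -0.67 to 0.35 at 72 h, Spi1 from -0.40 to 0.12 at 2 h, and Irf8 from -0.082 to 0.30 at 144 h. The cause of these differences was not tested. The 2 h and 96 h comparisons and the alternatives for list genes were added after seeing the data.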
